A study of Mus musculus with 23 samples.

Results

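The expression of 8 complement genes was followed in the mouse aorta under chronic intermittent hypoxia (CIH), a feature of obstructive sleep apnea. In the mice it was imitated by repeated falls in inspired oxygen. The genes were C1qa, C1qb and C1qc, C3, C4b and Cfb, and the receptors C3ar1 and C5ar1. They are 8 of the 30177 genes that the array measured under a single symbol. Each gene was read from the brightest probe set carrying its symbol alone, judged by the mean over all arrays, and each had only 1 such probe set. The platform annotation used here does not name C3. Its probe set was named from the name columns of the study's table of changed mRNAs, so C3 entered through a list chosen on these same arrays. Its differences in the contrasts that hold CIH 8W or Nor 8W arrays, and its correlations with macrophage markers, are given as descriptions.

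All mice were male ApoE-/- animals of the C57BL/6J strain on a high-fat feed, a model in which the missing apolipoprotein lets cholesterol-rich plaques form in the aorta. Every group, controls included, carried the deletion and ate this feed. The mice were bought at 8 weeks of age. Exposure comprised 8 weeks of normoxia (Nor 8W, n = 5), 8 weeks of CIH (CIH 8W, n = 5), 12 weeks of normoxia (Nor 12W, n = 5), 12 weeks of CIH (CIH 12W, n = 4), or 8 weeks of CIH followed by 4 weeks of normoxia (CIH 8W + Nor 4W, n = 4). RNA of the aorta was hybridized to 23 Clariom D arrays, labelled as biological replicates. Values are log2 signals as deposited.

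Complement is a cascade of blood and tissue proteins that tags particles for removal and calls in leukocytes. C1q, built of A, B and C chains, recognizes antibody complexes and dying cells and starts the classical pathway, and in most tissues macrophages are its main source. C4b and C3 are cleaved in turn, factor B supplies the protease of the alternative convertase, and the fragments C3a and C5a act on the receptors C3ar1 and C5ar1. C3, C4 and factor B come mostly from the liver and are also made locally by fibroblasts and other mesenchymal cells.

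In the RefSeq annotation the C1q chains are neighbours on chromosome 4, in the order C1qb, C1qc and C1qa. Cfb lies next to C2 on chromosome 17, which also holds C3 and C4b, and C5ar1 lies next to C5ar2 on chromosome 7. RefSeq promoter windows, from 250 bases before to 50 after the gene's start, were matched for 5 of the 8 genes; C1qa, C4b and Cfb had none. Windows of 4 of these 5 genes are shown 5′ to 3′ on the minus strand (build GRCm38.p6), at chr4:136886151-136886450 for C1qb, chr4:136892865-136893164 for C1qc, chr17:57228087-57228386 for C3 and chr6:122856108-122856407 for C3ar1. Capitals mark every match to a searched motif.
C1qb: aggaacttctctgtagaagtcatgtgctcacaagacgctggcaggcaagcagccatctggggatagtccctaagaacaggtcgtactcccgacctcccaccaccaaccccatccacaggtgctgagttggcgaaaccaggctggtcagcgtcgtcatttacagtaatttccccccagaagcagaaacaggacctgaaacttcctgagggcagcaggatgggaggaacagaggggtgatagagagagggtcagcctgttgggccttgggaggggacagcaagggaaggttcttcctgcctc
C1qc: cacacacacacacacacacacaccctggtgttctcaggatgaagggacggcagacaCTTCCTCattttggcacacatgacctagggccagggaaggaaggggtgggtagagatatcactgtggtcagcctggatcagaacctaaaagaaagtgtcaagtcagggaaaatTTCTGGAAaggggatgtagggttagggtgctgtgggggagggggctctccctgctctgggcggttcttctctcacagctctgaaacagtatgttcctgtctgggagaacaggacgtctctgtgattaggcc
C3: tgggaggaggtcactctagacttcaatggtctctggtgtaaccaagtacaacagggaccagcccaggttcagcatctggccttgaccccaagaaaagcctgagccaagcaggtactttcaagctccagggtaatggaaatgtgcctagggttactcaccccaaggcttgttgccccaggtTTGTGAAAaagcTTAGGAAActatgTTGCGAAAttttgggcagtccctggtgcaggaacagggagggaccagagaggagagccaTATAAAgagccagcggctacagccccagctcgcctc
C3ar1: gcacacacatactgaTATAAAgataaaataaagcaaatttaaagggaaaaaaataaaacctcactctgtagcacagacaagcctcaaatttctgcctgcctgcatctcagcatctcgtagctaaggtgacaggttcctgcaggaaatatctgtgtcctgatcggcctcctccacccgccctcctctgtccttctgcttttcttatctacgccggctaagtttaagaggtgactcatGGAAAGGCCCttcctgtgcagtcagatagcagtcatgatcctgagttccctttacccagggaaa
The motifs, searched on both strands, were GAGGAAG (PU.1), ACGTG (the core bound by hypoxia-inducible factors), TTCNNNGAA (STAT), TTNNGNAA (C/EBP) and TATAAA (the TATA box), together with longer motifs of IRF and NF-kappaB factors. C1qc held 1 match to the PU.1 letters, found in 13.6% of all 32851 windows, and 1 to those of C/EBP, found in 40.7%. C3 held 3 matches to the C/EBP letters and 1 to the TATA box letters, found in 13.6% of windows. The latter match lay at position 14, after the annotated start. C3ar1 held 1 match to the NF-kappaB letters, found in 1.63% of windows, and 1 to the TATA box letters, at position -235 from the start. C1qb held none of the 7, and no matches overlapped in these windows. The hypoxia-inducible factor core, found in 19.6% of windows, was in none of the 5 matched, nor were STAT (8.3%) and IRF (3.44%). A match is a string of letters and not a site shown to be bound.

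The array medians lay between 3.63 and 3.78, and background, the 95th percentile of each array's background probes, lay between 4.64 and 5.50. All members except C5ar1 were above it on all 23 arrays, and C5ar1 on 6. The smooth muscle, fibroblast, endothelial and macrophage marker lists were above background in every array. The hepatocyte list was not: Ttr, Apoa1, Apoa2, Apoc3, Fgb and Serpina1c were above background on 0 arrays and Alb on 5, whereas Ahsg was above it on 23. On 5 arrays the mean of the sympathetic neuron markers lay between 9.58 and 15.74, against 5.32 to 7.11 elsewhere; these were replicate 3 of Nor 8W, replicates 3 and 5 of CIH 8W, and replicates 3 and 4 of Nor 12W. Nor 12W replicate 4 also carried cardiomyocyte transcripts, at 12.82 on that list's mean. Counts of calls among the 8 genes are also given without these 5 arrays. For the rest of the pathway and for the correlations with macrophage markers, leaving them out was an alternative chosen after seeing the data.

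Among the C1q chains, C1qb read 14.53, 14.98, 13.28, 15.91 and 16.42 on the 5 arrays of Nor 8W, and 14.75, 17.15, 17.49, 15.20 and 16.10 on those of CIH 8W. At 12 weeks it read 15.75, 16.06, 16.33, 16.16 and 15.34 in Nor 12W, 15.86, 15.35, 15.42 and 15.44 in CIH 12W, and 14.88, 15.27, 15.32 and 15.50 in CIH 8W + Nor 4W. On C1qb CIH 8W replicates 2 and 3 stood above every other array and Nor 8W replicate 3 below every other, while the remaining arrays of both 8-week groups overlapped.

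C1qa read 8.43, 9.19, 8.06, 9.57 and 10.32 in Nor 8W, and 8.95, 11.27, 11.57, 9.26 and 9.95 in CIH 8W. It read 9.65, 9.86, 10.23, 9.94 and 9.56 in Nor 12W, 9.26, 9.19, 9.18 and 9.07 in CIH 12W, and 8.64, 8.94, 9.29 and 9.36 in CIH 8W + Nor 4W. The same arrays were highest and lowest as for C1qb, and at 12 weeks every array of either CIH group lay below every Nor 12W array. C1qc ranged from 10.34 on Nor 8W replicate 3 to 14.09 on CIH 8W replicate 3, with group means of 11.65 (SD 1.03), 12.56 (SD 1.19), 12.41 (SD 0.36), 12.03 (SD 0.34) and 11.63 (SD 0.33) in the order of the groups above.

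C3, the component on which all activation pathways converge, read 16.14, 15.71, 14.77, 15.81 and 16.47 in Nor 8W and 15.29, 17.12, 16.75, 16.67 and 16.68 in CIH 8W. It read 16.14, 16.13, 16.40, 16.10 and 17.03 in Nor 12W, 15.82, 16.39, 15.55 and 15.32 in CIH 12W, and 15.48, 15.03, 15.97 and 15.90 in CIH 8W + Nor 4W. Of the CIH 8W arrays 4 lay above all of Nor 8W, whereas replicate 1 lay near the bottom. After the return to normoxia all 4 arrays lay below all of Nor 12W.

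C4b, whose product joins the classical convertase, read 10.50, 10.62, 9.71, 10.77 and 11.35 in Nor 8W and 10.15, 11.87, 11.15, 11.11 and 12.01 in CIH 8W. It read 10.59, 11.12, 10.93, 10.56 and 11.99 in Nor 12W, 10.47, 10.89, 10.30 and 10.13 in CIH 12W, and 10.32, 10.07, 10.44 and 11.02 in CIH 8W + Nor 4W, and the groups overlapped throughout. C4b and its close paralogue C4a correlated at r = 0.995 over the 23 arrays, so their signals cannot be told apart with certainty.

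Cfb, encoding factor B, read 10.36, 10.81, 9.65, 10.85 and 11.95 in Nor 8W and 10.57, 12.23, 12.19, 10.39 and 11.16 in CIH 8W. It read 10.90, 10.89, 11.99, 10.68 and 11.21 in Nor 12W, 10.77, 11.86, 10.55 and 10.79 in CIH 12W, and 10.37, 10.19, 10.22 and 10.52 in CIH 8W + Nor 4W. The arrays of CIH 8W + Nor 4W lay together below all of Nor 12W and all of CIH 12W.

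The C3a receptor C3ar1, which is carried by macrophages and other myeloid cells, read 9.68, 9.72, 7.59, 10.58 and 11.97 in Nor 8W and 9.70, 12.90, 13.33, 10.58 and 12.12 in CIH 8W. It read 10.72, 11.19, 11.28, 11.40 and 10.47 in Nor 12W, 11.18, 10.59, 10.71 and 10.87 in CIH 12W, and 9.92, 10.33, 10.28 and 11.51 in CIH 8W + Nor 4W. Its range over all arrays was 5.74, the widest of the 8. The C5a receptor C5ar1 ran only from 4.12 to 6.09 and was above background on 0 of 5, 3 of 5, 1 of 5, 2 of 4 and 0 of 4 arrays in the same order of groups, so its differences are those of a probe set near background.

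**Figure D1:**
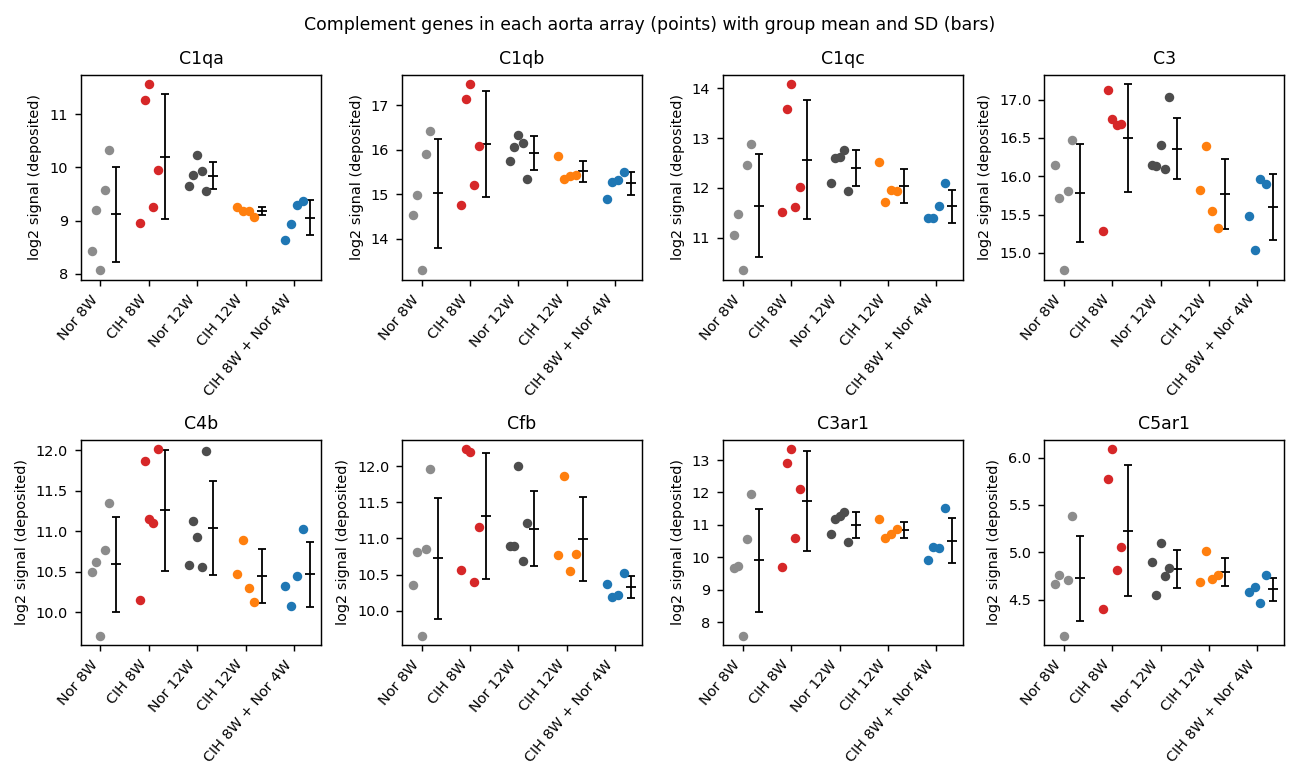
Log2 signal (y axis) of each complement gene in every array (points) of the 5 groups (x axis), with the group mean and SD beside them. CIH 8W has the highest mean in all 8 panels, and the spread is wide at 8 weeks and narrow at 12 weeks for C1qa, C1qb, C1qc, C3ar1 and C5ar1.

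CIH 8W held the highest mean and Nor 12W the second for all 8 genes, whereas the last place fell to CIH 8W + Nor 4W for C1qa, C1qc, C3, Cfb and C5ar1, to Nor 8W for C1qb and C3ar1 and to CIH 12W for C4b. The means of CIH 8W and Nor 12W lay within 1 SD of CIH 8W for every gene, and no neighbours in these orders were tested beyond the comparisons below. Over the 5 groups the moderated F-statistic of limma passed p under 0.05 for 0 of 8 genes, and the adjusted p of C1qa was 0.402. C3 was chosen on CIH 8W arrays, which enter this statistic, so its value there is no test.

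The spread between arrays differed with time as well. For C1qa, C1qb and C1qc the pooled SD within groups was 1.05, 1.21 and 1.11 at 8 weeks and 0.25, 0.31 and 0.35 at 12 weeks, ratios of 4.20, 3.88 and 3.23. The ratio was 3.30 for C3ar1 and 3.54 for C5ar1, and 1.58, 1.44 and 1.84 for C3, C4b and Cfb. Over all 65956 probe sets its median was 1.06, and 8.83% of them exceeded 2. Nor 8W replicate 3 was the lowest array for all 8 genes. The difference in spread was not tested, and at 8 weeks it moved with the macrophage markers described below.

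The first comparison asked what 8 weeks of CIH did to the aorta on a high-fat diet. All 8 genes had higher means in CIH 8W than in Nor 8W, with a median difference of 0.82 (log2) against -0.0032 over all probe sets, and 4 of 8 were called higher and 0 lower at the thresholds of the study (fold change over 1.1, with p under 0.05 before adjustment). Of all probe sets 3.99% were called higher and 2.47% lower. In a fit of the 23452 probe sets above background on at least 4 arrays, 1713 were called higher and 668 lower. Leaving aside C3, which was chosen on these arrays, 3 of 7 were called higher. C3ar1 was 1.82 (SE 0.66) higher on the log2 scale (95% interval 0.44 to 3.19, limma adjusted p = 0.696). Every SE of this model rests on a spread shared over the 5 groups. The pooled SD of C3ar1 was 1.57 at 8 weeks and 0.48 at 12 weeks, so its spread at 8 weeks is understated. In a fit of both groups alone the limma p of C3ar1 was 0.0694, and it was not called. C1qa was higher by 1.08 (SE 0.43, adjusted p = 0.696) and C1qb by 1.11 (SE 0.50, adjusted p = 0.701), while C1qc differed by 0.92 (SE 0.47, 95% interval -0.063 to 1.90) and was not called. C3, described only, was higher by 0.72 (SE 0.33). C4b, C5ar1 and Cfb, at 0.67 (SE 0.34), 0.50 (SE 0.24) and 0.58 (SE 0.40), were not called. The groups overlapped for all 8 genes, and exact two-sided permutation tests gave p from 0.0794 to 0.294. None of the 65956 probe sets passed an adjusted p under 0.05 in limma.

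These calls rested on few arrays. Without the 5 arrays of strong neuronal signal 0 of 8 genes were called, with differences of 0.45 for C1qa, 0.24 for C1qb, 0.33 for C3 and 0.57 for C3ar1. These 5 include Nor 8W replicate 3, the lowest array for all 8 genes and for the macrophage marker mean (9.76). They also include CIH 8W replicate 3, the highest for that mean (13.81). Why the calls were lost was not tested. In a fit of both groups alone 0 were called as well. Leaving out 1 array at a time gave between 0 calls, without Nor 8W replicate 3, and 8, without Nor 8W replicate 5. When replicate 1 of CIH 8W was left out 7 were called, when its replicate 2 or 3 was left out 1, and when replicate 1 or 2 of Nor 8W was left out 2.

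Macrophage markers moved with these genes. Of 12 markers 7 were higher (called) in CIH 8W, with a median difference of 1.13, and the mean of the list ranged from 9.76 to 12.72 in Nor 8W, 11.08 to 13.81 in CIH 8W, 11.65 to 12.49 in Nor 12W, 11.50 to 11.88 in CIH 12W and 11.07 to 12.01 in CIH 8W + Nor 4W. All 12 markers were above background on every array. Of 7 fibroblast markers 2 were called higher, with a median of 0.29, and of 6 smooth muscle markers 1 was lower, with a median of -0.34. Endothelial markers were called higher for 2 of 6, with all 6 positive and a median of 0.52, and T cell markers for 1 of 5, with all 5 positive and a median of 0.41. The mean of the endothelial list ranged from 10.08 to 10.87 in Nor 8W and from 10.46 to 11.74 in CIH 8W. Cd3d was above background on 0 arrays, Cd2 on 2, Cd8a on 3 and Cd3e on 8. The part of these markers in the result was not tested, and in whole-aorta RNA fewer cells of a type and less RNA per cell cannot be told apart. Of 7 neutrophil markers 0 were called, and Ngp and Mpo were above background on 0 arrays.

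**Figure D2:**
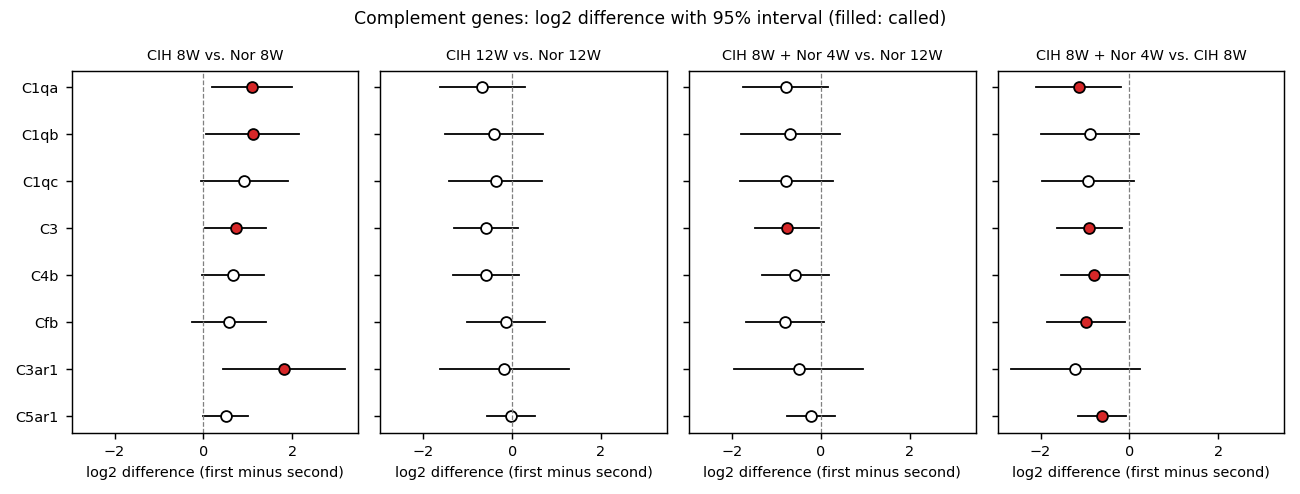
Log2 difference (x axis, first group minus second) of each gene (y axis) in 4 comparisons, with 95% intervals; filled points were called. All 8 genes lie to the right of 0 in CIH 8W vs. Nor 8W and to the left in the other 3 comparisons.

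At 12 weeks the differences between CIH and normoxia had the opposite sign, and none was called. All 8 genes had lower means in CIH 12W than in Nor 12W, with a median of -0.39 against -0.028 over all probe sets, yet 0 of 8 were called (4.29% of probe sets were higher and 6.99% lower), all at p over 0.05, and the lowest adjusted p was 0.530. In a fit of both groups alone, where the wide spread of the 8-week arrays does not enter, 2 of 8 were called. C1qa differed by -0.67 (SE 0.46; exact permutation p = 0.00794, the smallest that 5 arrays against 4 allow), the only one of the 8 whose groups did not overlap. C3 differed by -0.59 (SE 0.35) and C4b by -0.59 (SE 0.36), and C3ar1 by only -0.17 (SE 0.70). The directions of Cfb and C5ar1, at -0.14 and -0.029, turned under other settings: C5ar1 turned when arrays were centred on their median (0.035) or quantile normalized (0.015), and Cfb without Nor 12W replicate 3 (0.070). Without the 5 arrays of neuronal signal 0 of 8 were called, with C1qa at -0.51, C3 at -0.67 and C4b at -0.78, while C3ar1 turned to 0.046. Of the 12 macrophage markers 0 were called, with a median of -0.32. Smooth muscle markers were higher (called) for 2 of 6, with a median of 0.42. Adipocyte markers were lower for 3 of 5, with a median of -0.91, and brown adipocyte markers for 3 of 4, with a median of -2.47. The brown adipocyte mean ranged from 7.63 to 11.48 in Nor 12W and from 6.21 to 8.02 in CIH 12W. The part of these markers was not tested.

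The effects of CIH at 12 and at 8 weeks were set against each other in 1 contrast, which bears on whether the direction changed with the length of exposure. The effect at 12 weeks minus that at 8 weeks was negative for all 8 genes, with a median of -1.30 (-0.026 over all probe sets). Among them 4 of 8 were called lower and 0 higher (6.16% and 4.27% of all probe sets), or 3 of 7 with C3 left aside. With dim probe sets removed, 1965 of 23452 were called lower and 1873 higher. C1qa differed by -1.75 (SE 0.63, adjusted p = 0.324), C3, described only, by -1.32 (SE 0.48), C4b by -1.26 (SE 0.49, adjusted p = 0.379) and C1qb by -1.52 (SE 0.73, adjusted p = 0.477). C3ar1, at -1.99 (SE 0.96, 95% interval -4.00 to 0.013), was not called. C1qb lost its call when arrays were centred on their median (-1.47) or quantile normalized (-1.31), and 0 of 8 were called without the 5 arrays of neuronal signal, with C1qa at -0.96, C3 at -0.99 and C4b at -1.01. Leaving out 1 array gave 3 to 7 calls, the highest without CIH 8W replicate 1. Macrophage markers moved likewise, with 5 of 12 lower and a median of -1.23, and smooth muscle markers the other way, with 5 of 6 higher and a median of 0.75; their part was not tested.

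Return to normoxia was read against 3 groups. Against CIH 8W, which was also 4 weeks younger and 4 weeks shorter on the feed, all 8 genes had lower means in CIH 8W + Nor 4W, with a median of -0.92 (0.0079 over all probe sets); time and treatment cannot be told apart here. Of 8 genes 5 were called lower and 0 higher (6.78% and 5.1% of all probe sets), or 4 of 7 with C3 left aside. With dim probe sets removed, 2870 of 23452 were called lower and 1565 higher. C1qa differed by -1.14 (SE 0.46, adjusted p = 0.313), C3, described only, by -0.91 (SE 0.35), C4b by -0.79 (SE 0.36, adjusted p = 0.374), Cfb by -0.98 (SE 0.42, adjusted p = 0.347) and C5ar1 by -0.62 (SE 0.26, adjusted p = 0.335), all by limma. C3ar1 had the largest difference of the 8, -1.22 (SE 0.70, 95% interval -2.68 to 0.24), and was not called. All 8 overlapped between the groups, and exact permutation p ranged from 0.0635 for Cfb to 0.230 for C1qc. Without the 5 arrays of neuronal signal 0 of 8 were called, and leaving out 1 array gave from 0 calls, when replicate 2 of CIH 8W was dropped, to 8, when its replicate 1 was dropped. Dropping its replicate 3, or replicate 2 or 3 of CIH 8W + Nor 4W, gave 2 calls, and dropping replicate 1 of CIH 8W + Nor 4W gave 3. Macrophage markers were lower for 3 of 12, with a median of -0.98, and endothelial markers for 4 of 6, with a median of -0.53. T cell markers were lower for 4 of 5, with a median of -0.88, and smooth muscle markers higher for 2 of 6, with a median of 0.42. Fibroblast markers were lower for 2 of 7 (median -0.12) and neutrophil markers for 1 of 7 (median -0.73). Skeletal muscle markers were higher for 1 of 4 (median 0.74). Their part was not tested.

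Against Nor 12W, the group of equal age, the 8 genes again had lower means in CIH 8W + Nor 4W (median -0.73, and -0.0015 over all probe sets), and 1 of 8, C3, was called lower and 0 higher (5.23% and 4.14% of all probe sets). C3 fell by 0.76 (SE 0.35, limma adjusted p = 0.476). C1qa, C3 and Cfb did not overlap between the groups, with exact permutation p of 0.00794, 0.00794 and 0.0159, and the fitted differences of C1qa and Cfb were -0.79 (SE 0.46) and -0.81 (SE 0.42). The limma call of C3 was lost on quantile normalization (-0.58) and without any one of Nor 12W replicate 3 or 5 or CIH 8W + Nor 4W replicate 1 or 2. In a fit of both groups alone, where the wide spread of the 8-week arrays does not enter, 5 of 8 were called. Without the 5 arrays of neuronal signal, 2 of which are in Nor 12W, 1 of 8 was called, C3 at -0.84, and C1qa and Cfb stood at -0.63 and -0.68. Of the 12 macrophage markers 0 were called, with a median of -0.48. Smooth muscle markers were higher for 2 of 6 (median 0.38) and skeletal muscle markers for 2 of 4 (median 1.01), while brown adipocyte markers were lower for 2 of 4 (median -1.40). Adipocyte markers were lower for 1 of 5, with all 5 negative and a median of -0.57. Lower calls also fell to 1 of 7 fibroblast markers (median -0.095), 1 of 7 neutrophil markers (-0.44) and 1 of 5 sympathetic neuron markers (-3.83). The 1 red cell marker was called lower (-3.11). The adipocyte mean on Nor 12W replicate 5 was 11.63, the highest of all arrays. The part of these markers was not tested.

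Against CIH 12W, also of equal age, 0 of 8 were called (2.43% of all probe sets higher and 3.9% lower in CIH 12W), with a median of 0.23 (-0.024 over all probe sets). A fit of both groups alone, without the 8-week arrays, gave 1 call. Only Cfb separated the groups, 0.67 (SE 0.45) higher in CIH 12W on all 4 arrays (exact permutation p = 0.0286, the smallest that 4 against 4 allow; limma adjusted p = 0.842). C1qa, C3 and C4b differed by 0.12, 0.17 and -0.017, with 95% intervals from -0.89 to 1.13, -0.59 to 0.94 and -0.81 to 0.77, wide enough to hold the differences of all 3 between CIH 8W and Nor 8W. Of the 12 macrophage markers 0 were called, with a median of 0.14. Adipocyte markers were higher in CIH 12W for 1 of 5 (median -0.27) and brown adipocyte markers lower for 1 of 4 (median -0.68). Their part was not tested.

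In normoxia alone, 12 against 8 weeks of the feed gave higher means for all 8 genes (median 0.66, and 0.0045 over all probe sets), from 0.10 (SE 0.24) for C5ar1 to 1.1 (SE 0.66) for C3ar1, and 0 of 8 were called (4.21% of probe sets higher and 3.11% lower). C3 was chosen in part on the Nor 8W arrays and is described only. With C3 left aside 0 of 7 were called. C1qb differed by 0.90 (SE 0.50, limma adjusted p = 0.713). There were also 0 calls without the 5 arrays of neuronal signal, with C1qb at 0.26 and C3ar1 at 0.30. Without Nor 8W replicate 5 there were 5 calls and without Nor 8W replicate 4 there was 1. Of the 12 macrophage markers 1 was called lower and 0 higher, with 9 positive, 3 negative and a median of 0.60. Adipocyte markers were higher for 2 of 5 (median 0.80), and smooth muscle markers lower for 1 of 6 (median -0.28). Their part was not tested. The 7 contrasts share groups and are not independent of each other, so the order of CIH 8W over Nor 8W and over CIH 8W + Nor 4W rests in part on the same 5 arrays.

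C1q was described apart from C3, C4b and Cfb, which mesenchymal cells can also make. Over the 23 arrays the C1q chains correlated with each other at r = 0.947 to 0.969, and C3 with C4b at r = 0.907, whereas the chains correlated with C3 and C4b at r = 0.553 to 0.723. The same held for deviations from the group means, at 0.955 to 0.964, 0.873 and 0.431 to 0.581. Cfb lay between, at 0.786 to 0.837 with the chains, 0.728 with C3 and 0.667 with C4b. These are correlations over 23 arrays of 5 groups, and their differences were not tested.

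Each gene was set against the mean of the 12 macrophage markers. C1qb followed it at Pearson's r = 0.970 and Spearman's rho = 0.959, and at r = 0.938 without Nor 8W replicate 3 and CIH 8W replicate 3, the arrays farthest from the median. C3ar1 followed it at r = 0.976 and rho = 0.948 (r = 0.954 without these arrays), C3 at r = 0.713 and rho = 0.625 (r = 0.611) and C4b at r = 0.673 and rho = 0.683 (r = 0.665). The other 4 genes lay between r = 0.835 for Cfb and r = 0.942 for C1qa. Of the 8 relations computed, all had a permutation p, adjusted over the 8, of at most 0.002 for r and for rho. C3 was chosen on arrays of CIH 8W and Nor 8W, which enter here. Its r and rho are therefore descriptions and its p-values no test, with or without the 5 arrays of neuronal signal. The p-values refer to arrays of all groups together, so they do not part differences between groups from those within groups. No p was computed for deviations from the group means. Without the 5 arrays of neuronal signal (18 left) r was 0.941 for C1qb, 0.961 for C3ar1, 0.565 for C3 and 0.650 for C4b, with an adjusted permutation p of at most 0.01 for all 8. There rho for C3 was 0.422, at an adjusted permutation p of 0.08. Within groups, as deviations from the group means, r was 0.974 for C1qb, 0.980 for C3ar1, 0.639 for C3 and 0.590 for C4b. With the mean of the 7 fibroblast markers C3 and C4b correlated at only 0.399 and 0.382, below C1qb at 0.602 and Cfb at 0.670, so this list did not set C3 and C4b apart as mesenchymal. Nor did it set Cfb apart, whose r was higher with the macrophage list (0.835) than with the fibroblast list (0.670).

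**Figure D3:**
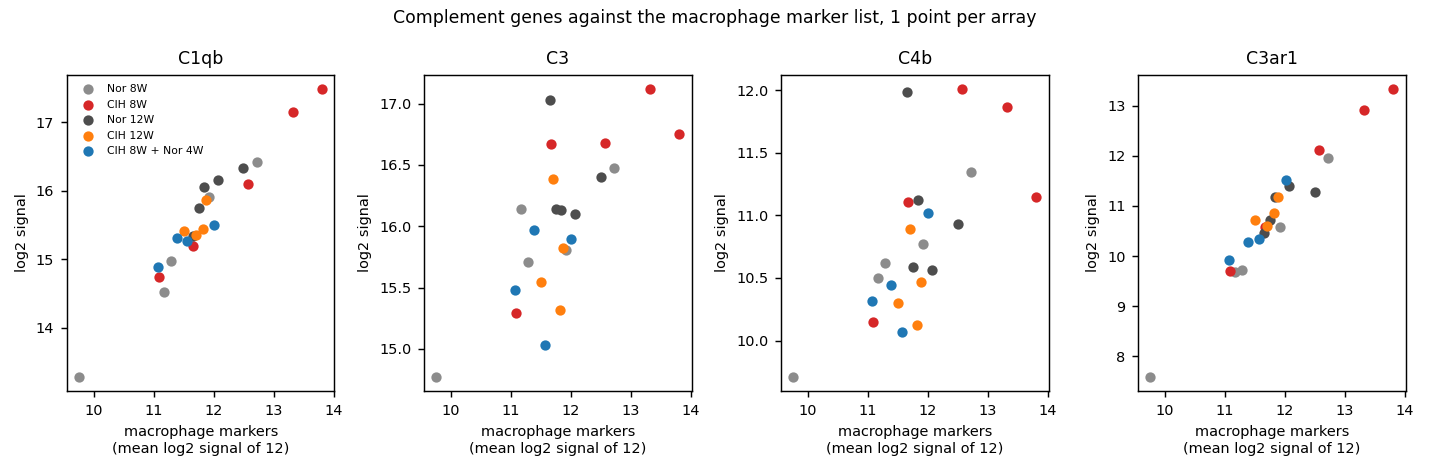
Log2 signal of C1qb, C3, C4b and C3ar1 (y axes) against the mean log2 signal of 12 macrophage markers (x axes), 1 point per array, coloured by group. C1qb (r = 0.970) and C3ar1 (r = 0.976) follow a line, and C3 (r = 0.713) and C4b (r = 0.673) scatter about it.

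The genes most alike over the 23 arrays differed in the same way. The mean of the C1q chains was closest to Tbxas1 (r = 0.976), which encodes thromboxane synthase, Tyrobp (0.976), the adaptor of many myeloid receptors, Cyth4 (0.975), Nckap1l (0.974) and Myo1f (0.973). For deviations from the group means the closest were Ms4a7 (0.984), Cybb (0.981), the phagocyte oxidase subunit, Lair1 (0.980), Gusb (0.980) and Ptpn6 (0.978). C3ar1 was closest to Cd53 (0.986), Gm15925 (0.981), Cd84 (0.981), Cd68 (0.981) and Mpeg1 (0.981), and C5ar1 to Csf3r (0.956), the G-CSF receptor, Lcp2 (0.952), Tlr1 (0.95), Fcgr2b (0.949) and Ctsc (0.948). C3 was closest to C4b (0.907), C4a (0.901), Gda (0.886), the guanine deaminase, Serpina3n (0.872), a protease inhibitor of the acute phase, and Serpina3e-ps (0.844). C4b was closest to C4a and C3 and then to Gda (0.852), Hp (0.841), the haptoglobin gene, and Man2a1 (0.839). Cfb was closest to Alox5ap (0.932), a protein of leukotriene synthesis, Ifi211 (0.923), Pld4 (0.923), Fcgr1 (0.913) and Lasp1 (0.904).

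The rest of the pathway was read from a list of 46 other complement genes, of which 42 were measured. Of these 20 were above background on all arrays, 17 on none and 5 on some; those on none include 5 of 7 terminal components (Hc, C8a, C8b, C8g and C9) and the mannose-binding lectins Mbl1 and Mbl2. In CIH 8W vs. Nor 8W 6 of 42 were called higher and 0 lower (3.99% and 2.47% of all probe sets), with a median of 0.025. Of 8 receptors 4 were higher: Itgax by 1.97 (SE 0.79) and Itgam by 1.43 (SE 0.55), the alpha chains of the complement receptors CR4 and CR3, their shared beta chain Itgb2 by 1.67 (SE 0.76), and Cd93, a transmembrane protein of endothelial and myeloid cells first described as a C1q receptor, by 1.06 (SE 0.38). Properdin (Cfp), which steadies the alternative convertase, was higher by 1.26 (SE 0.55). Masp1, a lectin pathway protease, was higher by 0.24 (SE 0.11) and above background on only 3 arrays. Adjusted p was at least 0.696 for all 6, and 0 of 42 were called without the 5 arrays of neuronal signal.

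**Figure D4:**
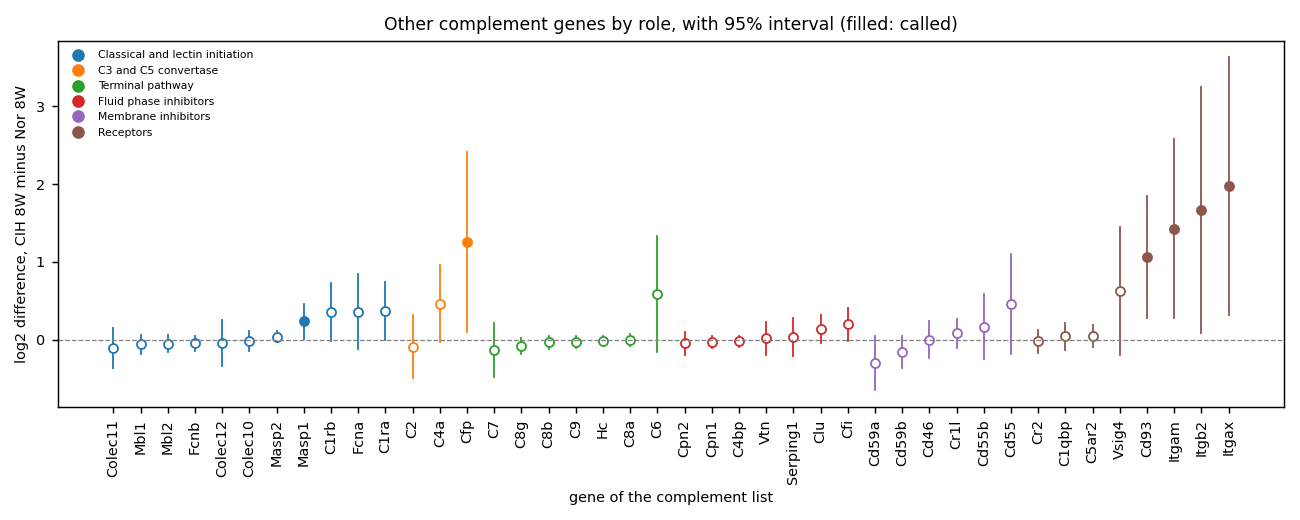
Log2 difference CIH 8W minus Nor 8W (y axis) with 95% interval for 42 other complement genes (x axis), coloured by role; filled points were called. The receptors Cd93, Itgam, Itgb2 and Itgax and properdin (Cfp) stand above the rest, most of which lie near 0.

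No inhibitor was called at 8 weeks. In CIH 8W vs. Nor 8W 0 of 7 fluid-phase inhibitors were called, with differences from -0.047 to 0.20, and of 6 membrane inhibitors 0, from -0.30 to 0.46. In CIH 12W vs. Nor 12W 5 of 42 were called lower and 0 higher (6.99% and 4.29% of all probe sets), with a median of -0.070. Vsig4, the complement receptor of resident macrophages, fell by 1.00 (SE 0.42, limma adjusted p = 0.341) and Fcna, ficolin A, by 0.54 (SE 0.24, adjusted p = 0.385), while C8g, C5ar2 and Cpn2 were above background on 0 arrays. When the 5 arrays of neuronal signal were left out, C4a, C6, C8g and Cpn2 were called lower and Cr1l higher, and Vsig4 and Fcna were not called. The difference of the effects of CIH at 12 and 8 weeks was lower (called) for 6 of 42 and higher for 0 (6.16% and 4.27% of all probe sets), at -1.62 (SE 0.57) for Vsig4, -1.35 (SE 0.52) for the terminal component C6, -0.99 (SE 0.45) for Cd55, the decay-accelerating factor, -0.91 (SE 0.35) for C4a, -0.90 (SE 0.33) for Fcna and -0.41 (SE 0.16) for Masp1. C6 was above background on 20 of 23 arrays. Without the 5 arrays of neuronal signal 0 of 42 were lower and 1, Cr1l, was higher.

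In CIH 8W + Nor 4W vs. CIH 8W 9 of 42 were called lower and 1 higher (6.78% and 5.1% of all probe sets), with a median of -0.11. Itgam fell by 1.47 (SE 0.58), Cfp by 1.45 (SE 0.59) and Cd93 by 1.17 (SE 0.40), Fcna by 0.67 (SE 0.24) with no overlap between the groups, C4a by 0.58 (SE 0.25), C1rb, a C1r protease gene with a close paralogue, by 0.44 (SE 0.19), and Masp1 by 0.29 (SE 0.12). Cd59a, which blocks the membrane attack complex, was the 1 called higher, by 0.40 (SE 0.18). With the 5 arrays of neuronal signal left out, 3 were lower (C1ra, C1rb and Fcna) and 0 higher. Against Nor 12W 1 of 42, Fcna, was called (5.23% of all probe sets were lower), and it fell by 0.51 (SE 0.24) with no overlap. Its call was lost without these arrays, where Cpn2 was called. Against CIH 12W 0 of 42 were called (2.43% higher and 3.9% lower). From 8 to 12 weeks of normoxia Cd46, a membrane inhibitor, fell by 0.37 (SE 0.11) and Cpn2 rose by 0.19 (SE 0.069) in the range of background (1 of 42 in each direction, with 4.21% of probe sets higher and 3.11% lower). Cd46 lay near background as well, at means of 5.95 and 5.58, and was above it on 22 of 23 arrays. Cd46 and Cpn2 were also called without the 5 arrays of neuronal signal. No complement gene of the list or of the 8 passed an adjusted p under 0.05 in any of the 7 comparisons (limma).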

How the data were processed

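Aortic RNA of 23 ApoE-/- mice in 5 groups was measured on Clariom D mouse arrays. The deposited values are log2 signals that had been normalized by the authors. Affymetrix Expression Console is named in the submitters' processing notes, whereas the methods of the study name Transcriptome Analysis Console. The summary method is not given in the sources used here, so log2 differences are on the deposited scale, whose values run from 1.87 to 19.93. Of 72688 rows 6732 were controls and 65956 gene-level probe sets were analysed without further normalization. Arrays were grouped by their titles. The number of arrays limits the precision.

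Group means were modelled together in limma 3.58.1, run in R 4.3.3, and variances were moderated by empirical Bayes. The study's thresholds for a call were kept (fold change over 1.1, with p under 0.05 before adjustment), and Benjamini-Hochberg adjustment ran over all 65956 probe sets. A moderated F-statistic and exact two-sided permutation tests of single genes were added. The fit was tested on simulated data.

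The members and lists were chosen with earlier results of these data known. Genes named are the 8 members, up to 8 called pathway genes per comparison with the smallest p, and the 5 genes most alike to each member by Pearson's r over the arrays. Correlations with the macrophage list have p-values from 100000 permutations of the arrays, the smallest of which is 1e-05. Of the 46 genes of the pathway list 42 were measured, and the rest are not reported here. The authors' tables of fold changes were not used, except that a name column identified C3. Alternatives were median centring, quantile normalization, array weights, moderation with a trend or made robust, removal of dim probe sets, the replicate number as a block, fits of the compared groups alone, other call rules, removal of the 5 arrays of neuronal signal and of each array in turn. For pathway counts and macrophage correlations that removal was chosen after seeing the data.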

Additional observations from a re-analysis of the deposited data

Results flagged for a closer look

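Of 40 groups of values (8 genes in 5 groups) 2 held an array that stood far from the others, and about 1 in 20 does so by chance. C1qb in CIH 12W replicate 1 read 15.86, above the other 3 arrays, which lay between 15.35 and 15.44. C3 in CIH 8W replicate 1 read 15.29, below the other 4, which lay between 16.67 and 17.12; this array was also low for C1qb (14.75), C4b (10.15) and C3ar1 (9.70), and its macrophage marker mean was 11.08, the lowest of its group.

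The effect of CIH differed between 12 and 8 weeks by an interaction contrast at an unadjusted p under 0.05 for C1qa (-1.75), C1qb (-1.52) and C4b (-1.26). None passed an adjusted p under 0.05, and none of the 3 was called without the 5 arrays of strong neuronal signal. C3, at -1.32, was chosen on CIH 8W arrays that enter this contrast, so its difference is a description and no test.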

How the results depend on the processing

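In CIH 8W vs. Nor 8W the 4 calls among the 8 genes became 0 without the 5 arrays of neuronal signal, in a fit of both groups alone, at an adjusted p under 0.05 and by exact permutation, and 0 to 8 with 1 array left out. In CIH 12W vs. Nor 12W the 0 calls became 2 in a fit of both groups alone and 1 by permutation (0 to 1 with 1 array left out), and those of CIH 12W against CIH 8W + Nor 4W became 1 and 1 (0 to 0). In CIH 8W + Nor 4W vs. Nor 12W the 1 call became 0 on quantile normalization, with the replicate block and by adjusted p, and 5 in a fit of both groups alone and by permutation (0 to 1 with 1 array left out). In CIH 8W + Nor 4W vs. CIH 8W the 5 calls became 3 on quantile normalization and 3 with the replicate block, 2 in a fit of both groups alone and 0 without the neuronal arrays, by adjusted p and by permutation (0 to 8 with 1 array left out). The 0 calls of Nor 12W vs. Nor 8W ran from 0 to 5 with 1 array left out. The 4 calls of the difference of effects became 0 without the neuronal arrays and by adjusted p (3 to 7 with 1 array left out). The F-statistic gave 0 under every setting run. A fit of the compared groups alone has fewer arrays behind its spread; the cause of the other changes was not tested.

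Same-numbered arrays of different groups did not deviate together (median r = 0.0256 over 43 pairs, 16 of them over 0.1), so the replicate numbers were not taken as pairs. With the replicate block C1qb in CIH 8W vs. Nor 8W lost its call (limma adjusted p = 0.688) and C4b gained one (adjusted p = 0.683).

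Differences near 0 changed sign. C5ar1 in CIH 12W vs. Nor 12W was 0.035 after median centring, 0.015 after quantile normalization, 0.0040 with array weights, 0.012 with the replicate block and 0.037 without the neuronal arrays, and ran from -0.10 to 0.039 with 1 array left out. There Cfb was 0.013 with array weights (-0.43 to 0.070) and C3ar1 0.046 without the neuronal arrays. C4b in CIH 12W against CIH 8W + Nor 4W was 0.025 after median centring and 0.082 with array weights (-0.17 to 0.17), C1qa there ran from -0.019 to 0.22 and C3 from -0.035 to 0.32. C5ar1 in Nor 12W vs. Nor 8W was -0.12 without the neuronal arrays (-0.055 to 0.26). Of the other settings for single genes 1076 kept direction and call, 49 gained a call and 110 lost one.

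Each gene had 1 probe set with its symbol alone, so the mean over probe sets and the choice of the probe set of highest variance were not run as separate settings. C5ar1 lay near background, and its differences are limited by that.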
